A study of Homo sapiens with 12 samples.

Results

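The change of gene expression at 48 h was followed on the 4 arrays that set RNA of LE treated cells against RNA of control cells at that time, of 12 arrays in all (6 at 24 h, 4 at 48 h and 2 at 72 h). LE is the methanol-dissolved leaf extract of Achyranthes aspera, a medicinal shrub. MIA PaCa-2 cells, an established line of human pancreatic cancer, were exposed to LE at 34 μg/mL in 2% methanol, and the control cells to 2% methanol alone. The 4 arrays were chosen by their labels, replicates 1 to 4 at 48 h. RNA of LE treated cells carried Cy5 on replicates 2 and 3, and Cy3 on replicates 1 and 4, with the control RNA in the other dye. The methods describe cultures in duplicate, while the labels call the 4 arrays replicates. The p-values therefore rest on the variation among arrays, part of which may be technical. Each value is a log2 ratio of 1 feature (a printed spot of the array), and 17134 of 43376 features (39.5%) had a value on all 12 arrays, the others on none. Every result is over these features.

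On such an array both RNAs compete for the same spot, and the ratio of the dyes gives the relative level of a transcript. Dyes differ in how they are taken up and read, and this adds a bias that belongs to the spot and not to the treatment. In a dye swap the RNAs exchange dyes. An effect of the treatment then keeps its direction once the ratio is written as LE over control, while the bias of the dye turns round. Replicates 2 and 3 on the one hand and replicates 1 and 4 on the other are such a swap, so the 48 h values can be divided into a part that both orientations share (the mean of the 4 arrays) and a part that changes with the dye. The part that changes with the dye is called the dye component. It is the mean of the arrays with LE in Cy5 minus the mean of those with LE in Cy3, divided by 2.

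The labels do not give the direction of the ratio, and it was taken as LE over control on every array, as deposited. This reading is not settled. By their 72 h mean as deposited, 393 features could be tied to an entry of a supplementary list. Of these, 120 had a 48 h entry equal to a mean of 48 h arrays of both orientations as deposited. Another 39 had an entry equal to a mean of arrays of 1 orientation. The tolerance was 2e-05 on the log2 scale. Each of these means was of 2 arrays, and no entry equalled a mean of 3 arrays or the mean of the 4 arrays that is used here. With the ratios turned by their dyes, 0 had such a match, but the tie by the 72 h mean already used the ratios as deposited. Entries made from turned ratios would have been missed by it, and entries averaged as deposited were favoured. Neither this 0 nor the 120 can therefore decide between the readings. The methods also name, as a criterion of quality, that the direction of a feature is opposite at dye swap. In the deposited ratios the mean of the arrays with LE in Cy5 and the mean of those with LE in Cy3 had the same sign at 7782 features (45.4%) and opposite signs at 9352 (54.6%). Values are therefore given as above or below 0, and the dye component, which is the result of turning the ratios, stands beside them.

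Of the markers that can place the cells, KRT8, KRT18 and KRT19, keratins of simple epithelium, had values, while EPCAM, KRT7 and CDH1, which mark epithelium too, had none on any array. VIM and FN1, of mesenchymal cells, had values and CDH2 and ZEB1 had none. Markers of acinar, endocrine and endothelial cells (0 of 12 on the array with a value) were blank. Of the other markers, CD14 of immune cells and COL1A1 and ACTA2 of fibroblasts had values. A log ratio holds no level, so this shows only which features passed the quality criteria.

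The 4 arrays differed in the size of their ratios. The SD over features was 0.73 on replicate 2 and 0.60 on replicate 3 (LE in Cy5), and 0.98 on replicate 1 and 0.48 on replicate 4 (LE in Cy3). The share of features at least 2-fold from 0 (a log2 ratio of 1 or more, or -1 or less) was 15.4%, 9.15%, 23.6% and 4.41% on replicates 2, 3, 1 and 4. Replicate 1 thus held the widest ratios and replicate 4 the narrowest, both with LE in Cy3, and the width did not follow the dye. The digits of the deposited values did follow it. Over 6 significant digits were given for 99.6% and 99.5% of features on replicates 2 and 3, and for 0% on replicates 1 and 4. The orientations thus also differ in how their values were written, and the reason was not tested. The medians were close to 0, between -0.05 on replicate 1 and 0.04 on replicate 2. Features on either side of 0 were about equally many, from 47.1% above 0 on replicate 1 to 52.6% on replicate 4.

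In the mean of the 4 arrays most features lay near 0. The median size of the mean was 0.22 on the log2 scale, 50.3% of features were above 0, and the middle 90% of features spanned -0.60 to 0.62. A mean of at least 2-fold was found at 318 features (1.86%), 134 above and 184 below 0. Only 1 feature was above 2 and 4 were below -2. The dye component was as large: its median size was 0.25, and it reached 1 or more at 57 features and -1 or less at 299. The SD of a feature over the 4 arrays had a median of 0.54 and exceeded the size of its mean at 14701 features (85.8%). For most features the replicates hence differed among themselves by more than their mean differed from 0.

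**Figure D1:**
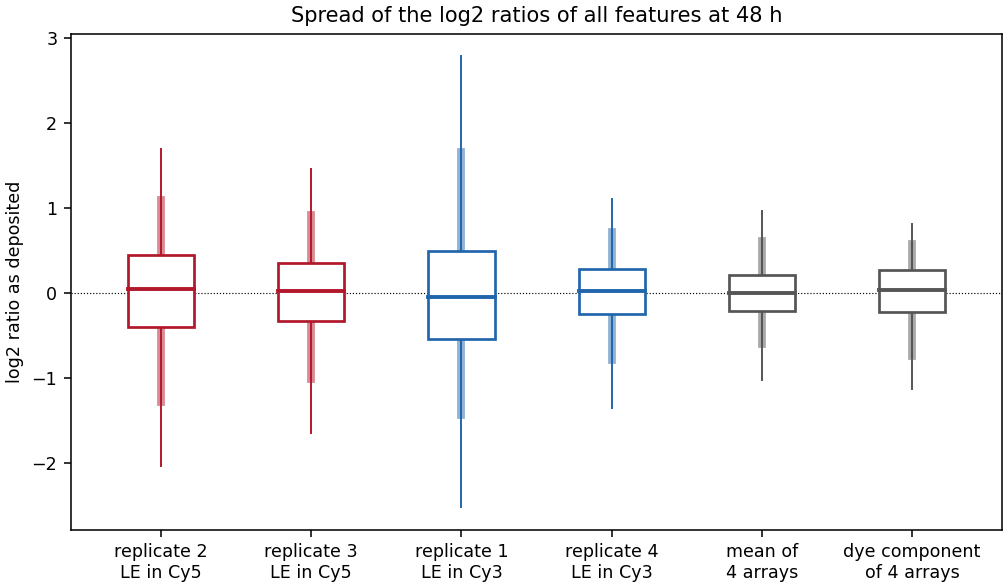
Log2 ratio (vertical axis, as deposited) of 17134 features on each 48 h array, and in the mean and the dye component of the 4 arrays. Boxes hold the middle 50% of the features with the median as a line, thick bars the middle 90% and thin lines the middle 98%. Replicate 1 is the widest (SD 0.98) and replicate 4 the narrowest (SD 0.48), and the mean and the dye component are of similar width.

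Over all features, arrays of the same dye orientation resembled each other more than arrays of opposite orientation, and clearly so only for replicates 2 and 3. Across the 17134 features, which are not independent replicates, Pearson's r was 0.32 between replicates 2 and 3 and 0.08 between replicates 1 and 4. Between arrays of opposite orientation it was -0.06 (replicates 1 and 2), -0.09 (1 and 3), 0.02 (2 and 4) and 0.02 (3 and 4). The mean of the arrays with LE in Cy5 had an r of -0.07 with the mean of those with LE in Cy3. The sum of squares of all 48 h ratios was split into 4 parts to give the same in shares. The mean of the 4 arrays held 27.2%, the dye component 31.3%, the difference between replicates 2 and 3 14.7%, and the difference between replicates 1 and 4 26.8%. The dye component was the largest of the 4 parts, and the mean came next, close to the difference between replicates 1 and 4. Arrays with nothing in common would also give each part a share, so 27.2% is not the share of the treatment.

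Many ratios were not a feature's own. On replicates 1, 2, 3 and 4, 36.7%, 38.9%, 44.5% and 48.8% of features had exactly the same ratio as another feature, and a single value stood at up to 51 features of replicate 1. This matters to the comparison of arrays, since the 6518 features (38.0%) with a ratio of their own on all 4 arrays behaved otherwise than the 3680 (21.5%) with a shared one on all 4. Among features with their own ratios, r was 0.45 between replicates 2 and 3, and 0.15 between replicates 1 and 4. Arrays of opposite orientation had an r of -0.33 (replicates 1 and 2), -0.11 (1 and 3), 0.06 (2 and 4) and 0.17 (3 and 4), so that replicates 3 and 4 were at least as alike as replicates 1 and 4. Among features with shared ratios r was 0.14 between replicates 2 and 3, -0.01 between replicates 1 and 4, and between -0.06 and -0.03 for opposite orientations. The dye component held 37.9% of the sum of squares of the own ratios and 27.4% of the shared ones. The mean of the 4 arrays held 26.7% and 23.9%. Among the shared ratios the largest part was the difference between replicates 1 and 4, with 39.3%, so the dye component was the largest over all features and over own ratios only.

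**Figure D2:**
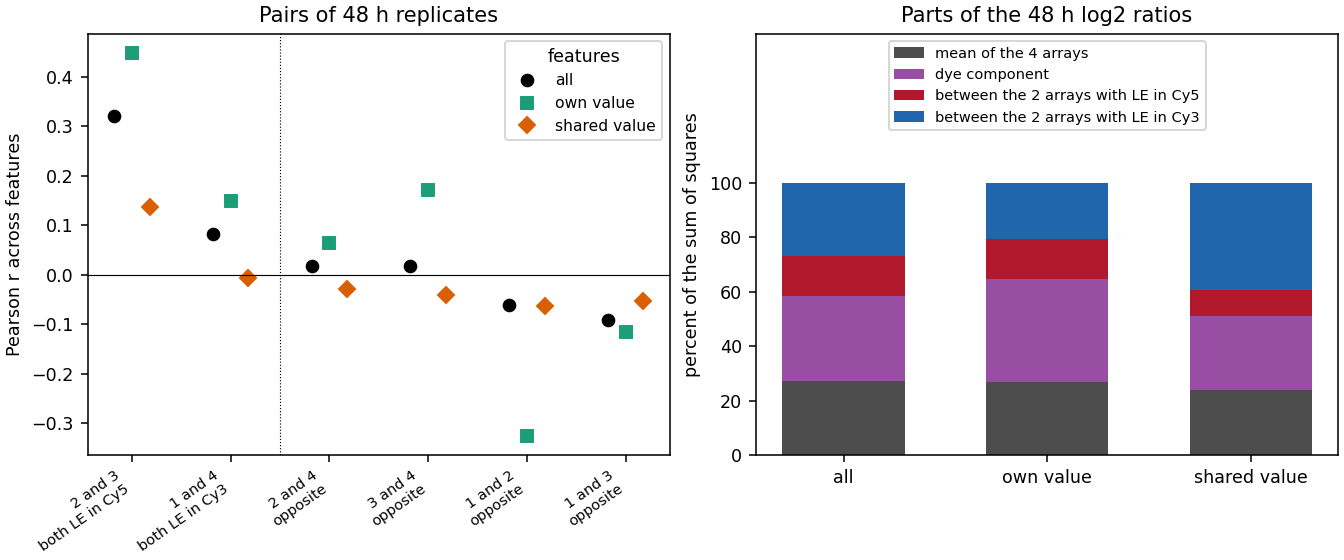
Left, Pearson's r across features for each pair of 48 h replicates, for all 17134 features, for those with a ratio of their own on all 4 arrays and for those that share it with another feature on all 4. Right, percent of the sum of squares of the 48 h ratios held by the mean, by the dye component and by the difference within each orientation. Replicates 2 and 3, both with LE in Cy5, are the most alike (0.32 over all features, 0.45 over own ratios).

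No feature passed the threshold at 48 h. With limma over the 12 arrays and Benjamini-Hochberg adjustment over 17134 features, 0 features (0%) had an adjusted p of 0.01 or less, and the lowest adjusted p was 0.167. At an unadjusted p under 0.05 there were 1591 features (9.29%), 877 above and 714 below 0. This count was 952 with the 48 h arrays alone and 2432 with robust regression. The median standard error of a 48 h mean was 0.27. In simulated data this fit and threshold found 12.5% of added changes of 1 on the log2 scale and 77.5% of changes of 2. The 0 calls therefore do not show that 2-fold changes were absent. Robust regression, which gives little weight to an array far from the others, called 9 features at this threshold, among them BAX, CYFIP1 and ANXA7 above 0 and TUBB, COX19 and NDUFB7 below 0. Leaving out replicate 3 called COX19 and TUBB, 2 genes whose ratios were below 0 on replicates 1, 2 and 4 and above 0 on replicate 3 (1.36 and 1.24 there). CYFIP1, ANXA7, TUBB, COX19 and NDUFB7 are named here for these calls, after their values were seen.

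The signs gave the same picture. Features above 0 on the 4 arrays were 1259 (7.35%) and features below 0 on the 4 arrays 1147 (6.69%), while 6408 (37.4%) had 2 arrays on either side. After turning each ratio by its dye label, 3220 features (18.8%) lay on 1 side of 0 on the 4 arrays, more than the 2406 as deposited. Arrays with nothing in common would also place some features on 1 side of 0, so neither is a count of changed features. The 24 h and 72 h arrays did not enter this choice. Of the 2406 features on 1 side of 0 at 48 h, 63.6% had the same sign in the 24 h mean and 72.3% in the 72 h mean, where over all features 58.5% and 60.6% had it. Of the 3220 features picked in turned ratios, 84.9% had the same sign at 24 h and 80.5% at 72 h in the turned means, where over all features 70.8% and 67.7% had it. Hence the direction of the dye component was more often the same at the other time points than the direction of the mean.

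The features named next are those of 1 gene symbol, above or below 0 on the 4 arrays, with the smallest p at 48 h (12 on each side). They were chosen by their 48 h ratios, and their values are a description. Their adjusted p (limma) lay between 0.167 and 0.254, so none is called changed. Each value belongs to a single feature. Of the 12 genes on each side, 6 had other measured features as well.

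On the side above 0, a feature of BAX, which opens the outer membrane of mitochondria in apoptosis, had log2 ratios of 2.43, 1.53, 1.86 and 0.59 on replicates 1 to 4, with a mean of 1.60 ± 0.77 (SD, n = 4; adjusted p = 0.167 by limma). The lowest of the 4 was on replicate 4. A feature of CASP8, the caspase that death receptors activate, was at 1.07, 1.06, 1.99 and 0.92, with a mean of 1.26 ± 0.49. Replicate 3 stood apart there, and the other 3 ratios lay close together. A feature of CENPE, a kinesin that carries chromosomes to the metaphase plate, was at 2.89, 2.23, 0.83 and 1.30, the highest mean of the 24 features (1.81 ± 0.93). SHISA5, an endoplasmic reticulum protein linked to p53-dependent death, was at 0.91, 2.26, 1.43 and 0.89, higher on both arrays with LE in Cy5. BTBD9, a BTB domain protein, showed the same order, at 1.04, 2.06, 3.01 and 0.69, and its dye component was 0.84 beside a mean of 1.70 ± 1.05.

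Of the other features above 0, SYNCRIP, an RNA binding protein (hnRNP Q), had the closest replicates of the 24 features, at 0.83, 1.06, 1.11 and 0.73, with a mean of 0.93 ± 0.19. CHASERR, a long noncoding RNA, was at 0.99, 2.17, 1.32 and 1.04. A feature of UQCC1, which helps to assemble complex III of the respiratory chain, was at 1.45, 2.02, 0.71 and 0.72. The feature of TMCO1, a calcium channel of the endoplasmic reticulum, had nearly the same ratios as that of UQCC1, at 1.51, 2.17, 0.62 and 0.67, and over the 12 arrays the features differed by only 0.08 (root mean square). UBXN11, a UBX domain protein, had a mean of 1.45 ± 0.54. BBS1, a subunit of the complex that moves cargo to cilia, had a mean of 1.37 ± 0.88, from 0.38 on replicate 3 to 2.13 on replicate 1. SLC7A9, a transporter of cystine and basic amino acids, had a mean of 1.09 ± 0.37. In the 24 h mean 11 of these 12 features were above 0, and in the 72 h mean 11 as well. UQCC1 and TMCO1 were above 0 on 6 of 6 arrays at 24 h and the BAX feature on 3 of 6.

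On the side below 0, PHLDA3, which p53 induces and which holds back AKT, was at -1.88, -1.40, -0.89 and -0.85, with a mean of -1.25 ± 0.49. MDM4, an inhibitor of p53, was at -1.19, -1.17, -0.15 and -2.49, with a mean of -1.25 ± 0.96. The 2 genes lie on opposite arms of the p53 response and both stood below 0 here, MDM4 with its lowest ratio on replicate 4 and near 0 on replicate 3. PHLDA1, a relative of PHLDA3 that growth factors and stress induce, was at -1.764, -1.998, -0.786 and -0.352, and its other feature had a mean of 0.04. UBE2O, a ubiquitin-conjugating enzyme, was at -2.27, -1.86, -0.40 and -0.58, and its other feature had a mean of 0.83.

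Of the other features below 0, a feature of LAMC1, a chain of laminins in the basement membrane, was at -1.79, -1.27, -1.04 and -1.04, with a mean of -1.29 ± 0.35. TRIM16L, a TRIM16-like protein, ran beside it, at -1.81, -1.36, -0.95 and -1.06, and the features differed by 0.14 over the 12 arrays (root mean square). These were the only 2 of the 12 that were below 0 on 6 of 6 arrays at 24 h. EIF3A, a subunit of the initiation factor that brings the small ribosomal subunit to mRNA, was at -0.66, -0.88, -1.43 and -1.05. ALDH3B1, an aldehyde dehydrogenase, had a mean of -1.21 ± 0.50, and KIAA2013 one of -1.36 ± 0.74. GNPTAB, which tags lysosomal enzymes with mannose phosphate, was at -2.19, -0.34, -0.66 and -1.50, and TCEAL2 at -1.34, -0.45, -0.79 and -1.30, both lower on the arrays with LE in Cy3. CASKIN1, a scaffold of synapses, was at -3.97, -1.08, -0.50 and -1.22, and its mean of -1.69 ± 1.55 leaned on replicate 1. In the 24 h mean 6 of these 12 features were below 0 and in the 72 h mean 9. Of the 12 features, 3 had a ratio of their own on all 4 arrays, against 11 of the 12 above 0 and 38.0% of all features.

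**Figure D3:**
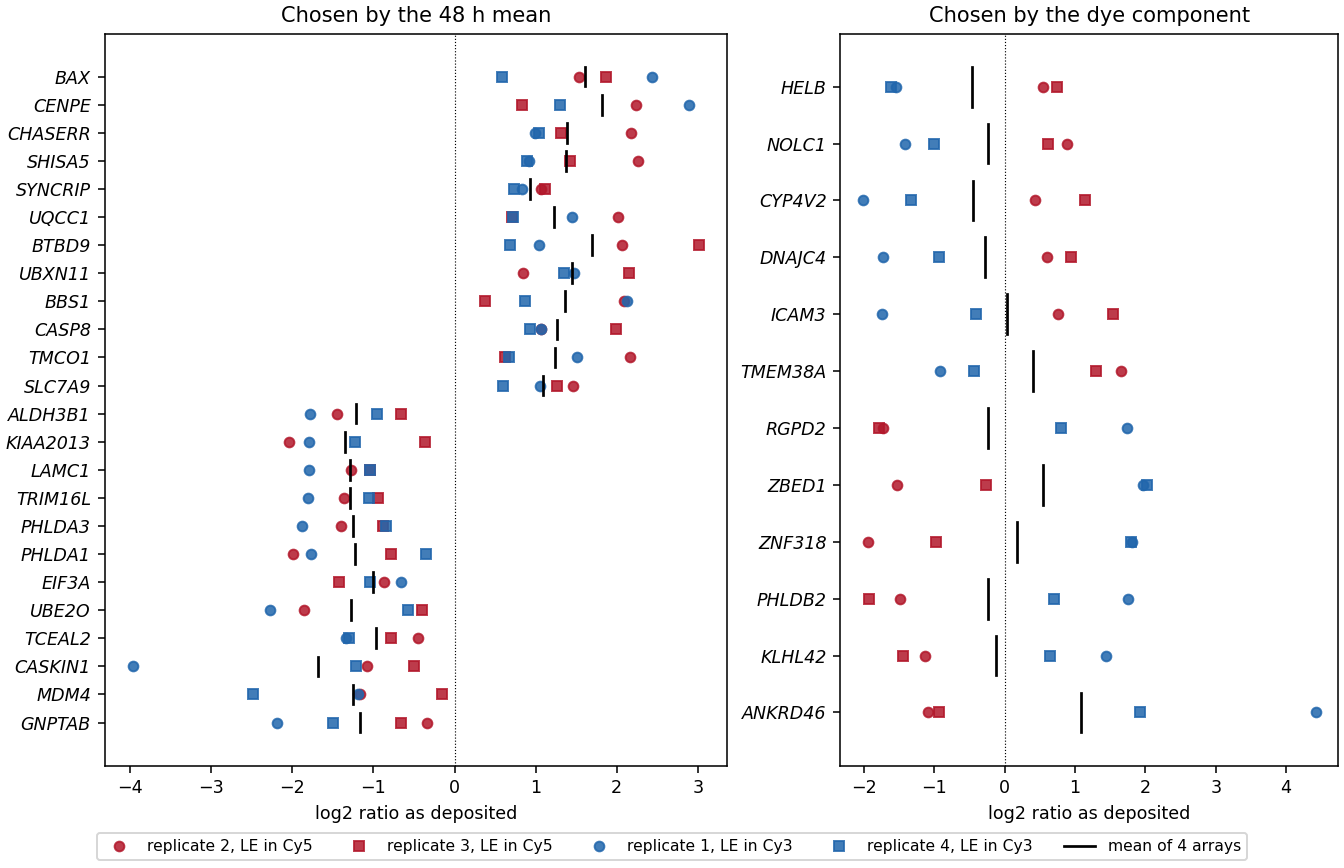
Log2 ratio as deposited (horizontal axis) of 36 features on the 48 h replicates, red for LE in Cy5 and blue for LE in Cy3, with the mean as a black line. On the left the replicates lie on 1 side of 0. The colours separate there at CHASERR, SHISA5, SYNCRIP, BTBD9, SLC7A9, TCEAL2, CASKIN1, MDM4 and GNPTAB, and mix at the other features. On the right the red and the blue points lie on opposite sides of 0.

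The dye component was tested in its own right. It had 0 features at an adjusted p of 0.01 or less in the fit with a term for each time and orientation, with a lowest adjusted p of 0.238, and 2380 features (13.9%) at an unadjusted p under 0.05. This count rested on single arrays: it was 1146 without replicate 1, 1387 without replicate 2 and 3912 without replicate 4, and 1565 with the 48 h arrays alone. Without replicate 1 it was below that of the LE comparison, which then had 1441. With a single dye term for the 12 arrays, 46 features passed the threshold, 2 above and 44 below 0. The 48 h arrays are part of that fit, so the side on which these features lie at 48 h is no further evidence. Leaving out replicate 4, which leaves a lone array with LE in Cy3 that is assumed to vary like the others, gave 96 calls in the fit by time and orientation, of which 3 were among the 46. Of these 96, 29 lay on 1 side of 0 on the 4 arrays in turned ratios and 9 as deposited. Many of these calls held a replicate 1 ratio that other features shared, such as 3.84 at features of YIPF5, KAT8, APP and GAPDH. At 115 features the mean of LE in Cy5 was at least 2-fold below 0 and that of LE in Cy3 at least 2-fold above. The reverse was found at 9. Both means were at least 2-fold on the same side at 27 features above and 53 below 0.

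By name, the features with the smallest p of the dye component (6 above and 6 below 0, all on 1 side in turned ratios) had adjusted p-values of 0.238. ANKRD46, an ankyrin repeat protein, was at -1.09 and -0.94 with LE in Cy5 (replicates 2 and 3) and at 4.42 and 1.93 with LE in Cy3 (replicates 1 and 4), with a dye component of -2.09. The orientations did not overlap, and the widest ratio was on replicate 1. RGPD2, a relative of the nuclear pore protein RANBP2, was at -1.73 and -1.79 with LE in Cy5 and at 1.75 and 0.81 with LE in Cy3. The feature of PHLDB2, which anchors microtubules at the cell cortex, followed it within 0.19 over the 12 arrays (root mean square). ZNF318, a zinc finger protein, was at -1.94 and -0.97 with LE in Cy5 and at 1.81 and 1.79 with LE in Cy3. ZBED1, a transcription factor, had a dye component of -1.45 and KLHL42, a cullin adaptor, one of -1.16. With the single dye term ANKRD46, RGPD2, ZNF318 and KLHL42 passed the threshold (adjusted p = 0.0068 each).

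On the other side, CYP4V2, a fatty acid hydroxylase, was at 0.43 and 1.15 with LE in Cy5 and at -2.01 and -1.33 with LE in Cy3. HELB, a DNA helicase, was at 0.54 and 0.75 with LE in Cy5 and at -1.54 and -1.61 with LE in Cy3. In both genes the ratios with LE in Cy3 were the wider ones. NOLC1, a nucleolar protein, DNAJC4, a J domain protein, ICAM3, an adhesion protein of leukocytes, and TMEM38A, a potassium channel of the endoplasmic reticulum, had dye components between 0.98 and 1.11.

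Features with the same gene symbol and transcript accession, called copies here, gave a check of single features. Whether copies share a probe sequence was not examined. Over 5908 features in 2058 such groups with at least 2 measured copies, the intraclass correlation was between -0.03 and 0.00 on the 4 arrays. It was -0.03 for the mean and 0.00 for the dye component (1 for copies with equal ratios, 0 for copies no more alike than any features). Whether a feature had a value at all was shared among copies, with an intraclass correlation of 0.45 over 15425 features. Between arrays, over 1702 features of groups with at least 8 copies, r was 0.31 between replicates 2 and 3 and between -0.08 and 0.06 for the other 5 pairs. A feature thus resembled itself between replicates 2 and 3, and its copies on the same array did not resemble it. Whether each ratio stands beside its own gene name was not tested.

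BAX shows it in a single gene. Its feature at 1.60 was 1 of 12, and the other 11 had means from -0.85 to 0.35 with a median of 0.03, 6 above and 5 below 0. CASP8 had 11 features, and the 10 others lay between -0.39 and 0.42. CENPE had 10, and the others reached from -1.71 to 0.45. That feature of CENPE at -1.71 had ratios of -4.30, -1.13, 0.21 and -1.61, so the symbol held features of over 2-fold on either side. Of 169 genes with at least 8 features, all 169 had features on both sides of 0, and the median SD within a gene was 0.35 where the SD over all features was 0.38. The highest median was that of CENPQ, a protein of the kinetochore, at 0.40 with 8 of 10 features above 0. The lowest was that of IFI27, an interferon-inducible protein, at -0.44 with 6 of 10 below 0.

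**Figure D4:**
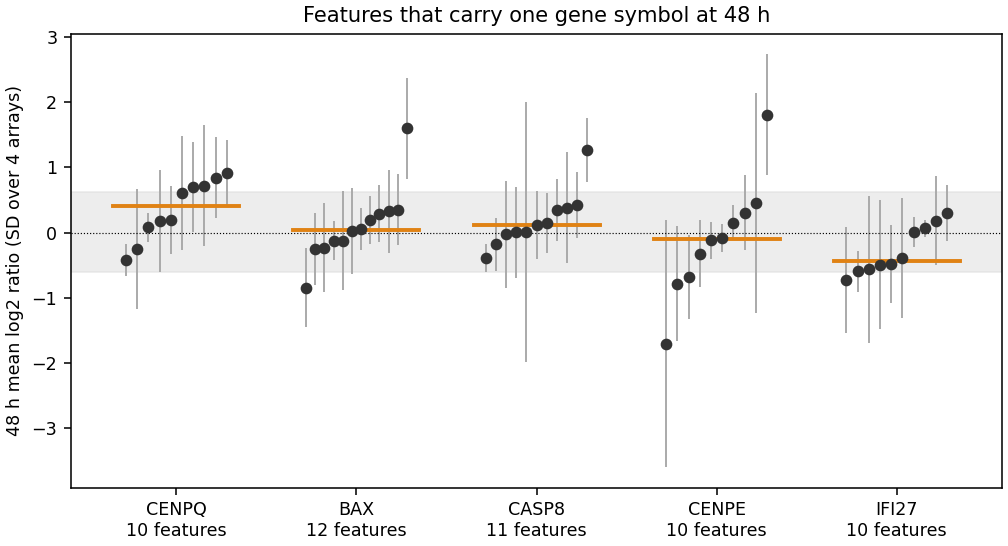
Mean 48 h log2 ratio (vertical axis) of each feature of 5 genes, with the SD over the 4 arrays as bars and the median of the gene's features in orange. The grey band holds the middle 90% of all features (-0.60 to 0.62). BAX, CASP8 and CENPE each have a single feature far above the others.

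The 48 h ratios were also set against the other time points, in the same fit. The SD over features of the mean was 0.27 at 24 h (6 arrays), 0.38 at 48 h (4 arrays) and 0.50 at 72 h (2 arrays), and the 3 means rest on different numbers of arrays. The contrast of 48 h with the mean of 24 h and 72 h had 0 features past the threshold by limma, a lowest adjusted p of 0.995 and 779 features (4.55%) at an unadjusted p under 0.05. The BAX feature averaged 0.08 at 24 h, 1.60 at 48 h and -0.34 at 72 h, a difference of 1.74 that did not pass adjustment (adjusted p = 0.995). CASKIN1 averaged 0.24, -1.69 and 0.36 and UBE2O 0.09, -1.28 and 0.09 at 24, 48 and 72 h. LAMC1, by contrast, stood below 0 throughout, at -0.71, -1.29 and -1.52, and UQCC1 above 0, at 0.63, 1.23 and 1.22.

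Genes were then taken by function, with the features of a symbol averaged into 8828 genes and 23 lists, 1 of them the study's own and the others drawn from general knowledge. Over all genes 784 (8.88%) had an unadjusted p under 0.05, 415 above and 369 below 0, and 0 had an adjusted p of 0.01 or less (lowest 0.172, limma). No list held a gene past the threshold. Lists are described by their counts beside those of all genes, of which 50.4% were above 0 with a median of 0.00. Copies on the same array did not resemble each other, as given above, so a gene mean or a list median only describes ratios. It does not show a change of the gene or of the pathway.

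Apoptosis regulators and caspases had the largest share above 0, 16 of 21 measured genes, with a median of 0.11 and 3 genes at an unadjusted p under 0.05, 2 above and 1 below 0. APAF1, the scaffold of the apoptosome, was at 0.31, 1.71, 1.80 and 0.26 (adjusted p = 0.298 by limma), and BAK1, a relative of BAX, at 0.23, 0.98, 1.16 and 0.13. Both were high on the arrays with LE in Cy5 and close to 0 on the others. TRADD, an adaptor of death receptors, was at -0.11, -0.41, -0.23 and -1.75. CASP2, averaged over 2 features, lay at 0.38, 0.39, 0.37 and 0.37. The general transcription factors and subunits of RNA polymerase II, which start transcription of mRNA, had 21 of 37 genes above 0 and the highest median of the lists (0.16), with 3 genes above and 1 below 0 at that p. TAF3, averaged over 2 features, was at 0.61, 0.38, 0.73 and 0.34, TAF9B at 1.28, 1.43, 1.71 and 0.54, and POLR2G at 0.23, -0.58, -0.67 and -0.89.

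Targets of p53 leaned to the other side, with 11 of 16 genes below 0, a median of -0.08 and 2 genes below 0 at an unadjusted p under 0.05. These were PHLDA3, given above, and TP53INP1, at -2.48, -2.21, -0.37 and -0.48 (adjusted p = 0.307 by limma). MDM2 and PMAIP1, targets with 10 features each, averaged -0.26 ± 0.38 and -0.20 ± 0.11. Of 16 immediate early and MAP kinase feedback genes, 3 were below and 1 above 0 at that p. DUSP4, a phosphatase of MAP kinases, was at -3.45, -1.73, -0.01 and -0.53, EGR1 at -0.12, -0.43, -0.92 and -0.93, and SPRY2, a brake on the same pathway, at 2.38, -0.05, 0.55 and 0.13. DUSP4 and SPRY2, both feedback genes, lay on opposite sides of 0 in their means, and the largest ratios of DUSP4 and SPRY2 were on replicate 1. Fatty acid oxidation had 12 of 19 genes below 0, with ETFA, an electron carrier, at -0.81, -0.55, -0.56 and -0.57 (mean of 2 features, adjusted p = 0.434 by limma).

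Targets of NF-kappaB had 10 of 17 genes above 0. CXCL3, a chemokine, was at 0.81, 0.71, 0.33 and 1.08 (adjusted p = 0.247 by limma), TNFAIP2 at 0.70, 0.85, 1.13 and 0.25, and TNIP1, an inhibitor of the pathway, at -0.36, -0.85, -0.55 and -0.56. ME1, a NADPH-producing target of NRF2, had even replicates, at 0.82, 0.64, 0.80 and 0.68. TXN, thioredoxin, lay at 0.99, 0.36, 0.36 and 0.54, and 8 of the 15 NRF2 targets were above 0. Of 27 measured autophagy and lysosome genes, 3 were above 0 at an unadjusted p under 0.05 and 0 below. That share of 11.1% was near the 8.88% of all genes. The 3 were ATG5 at 0.62, 0.61, 0.78 and 0.33, WIPI1 with a mean of 0.69 ± 0.40 and GABARAP with one of 0.38 ± 0.29. They act in the building of autophagosomes, and each was above 0 on the 4 arrays. They were picked for a small p at 48 h, and the list as a whole was split, 14 above and 13 below 0. Interferon-stimulated genes were 14 above and 20 below 0. IFI35 gave the lowest mean of all features at 48 h (-2.44), yet its ratios were -7.77, -2.47, 0.14 and 0.33, so 2 arrays carried it.

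The cytosolic ribosomal proteins, the longest list, were 33 above and 29 below 0, with 6 above and 2 below at an unadjusted p under 0.05. RPL27 was at -0.999, -0.393, -0.895 and -1.19 and RPL23 at 0.26, 1.03, 1.13 and 0.55, so that subunits of the same ribosome had ratios on opposite sides on every array. The proteasome subunits were 15 above and 17 below 0, with PSMD9 at 0.80 ± 0.27 and PSMB1 at -0.76 ± 0.69. Mitosis, S phase, DNA repair, glycolysis, heat shock, unfolded protein, tricarboxylic acid cycle, cholesterol synthesis, detoxification and invasion lists had medians between -0.03 and 0.08 and 0 to 3 genes at that p. Among them were CCNB1, the mitotic cyclin, at -1.32, -1.36, -0.24 and -0.07, POLA1, a DNA polymerase subunit, at 0.51, 0.47, 1.33 and 0.35, TYMS, thymidylate synthase, at -0.65, -0.59, -1.91 and -0.24, and HERPUD1, of the unfolded protein response, at 1.29, 0.91, 0.18 and 0.21. Each of the 4 kept 1 side of 0 on the 4 arrays, with sizes that differed several-fold between arrays. The epithelial and mesenchymal list had 4 of 11 genes at that p, LAMC1, OCLN and TGFBI below 0 and CLDN3 above. The 32 measured genes of the study's own list, which were chosen on these arrays and are no independent evidence, had 12 at that p, with UQCC1 at 1.23 and TMEM258 at -1.23.

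**Figure D5:**
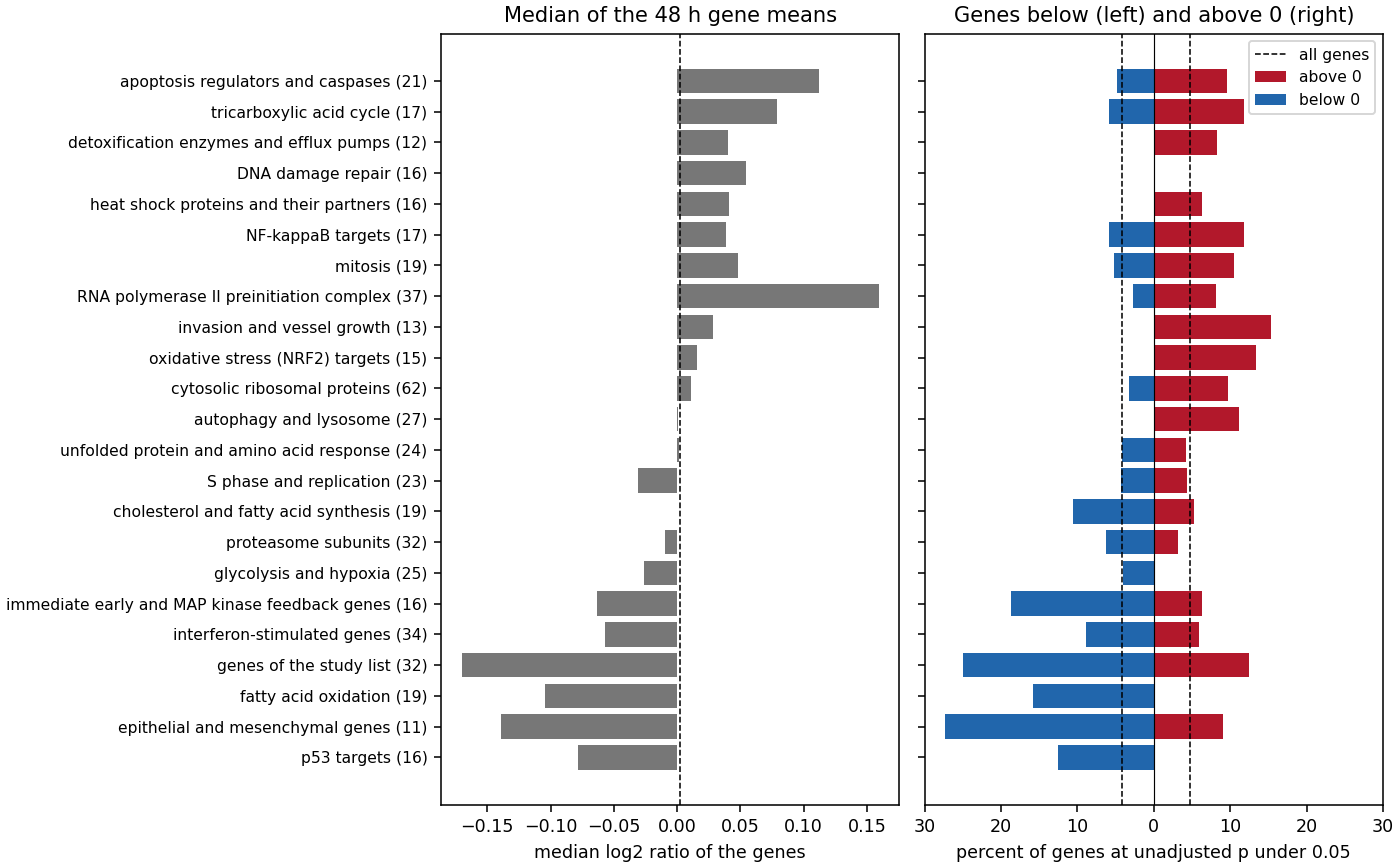
Left, median 48 h log2 ratio of the genes of each list, with the number of measured genes in brackets. Right, percent of its genes at an unadjusted p under 0.05 by limma, below 0 to the left in blue and above 0 to the right in red, with dashed lines for all 8828 genes. Lists are ordered by their share of genes above 0, with apoptosis regulators at the top (16 of 21) and p53 targets at the bottom (5 of 16).

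Genes that the study followed by PCR lay on either side of 0. APOL1, an interferon-inducible apolipoprotein with 1 feature, was at -0.10, 0.65, 0.85 and 0.34. Both features of IRF5, which turns on interferon genes, were on 1 side of 0 on the 4 arrays, and on opposite sides: 1 at 0.89, 0.34, 0.50 and 0.62 and the other at -0.91, -0.69, -1.74 and -0.92. Features of TBP, which binds the TATA box, ranged in mean from -0.51 to 1.30, and those of POLR2A, the largest RNA polymerase II subunit, from -1.24 to 0.90 (10 features each). Of the PCR references, GAPDH had 10 features with means from -0.27 to 0.79. The highest was at 3.84 on replicate 1 and at -0.24, 0.08 and -0.50 on the others. It shared its ratio with another feature on each of the 4 arrays. ACTB had 13 features with means from -1.27 to 0.42. ICAM1, SLA, HYAL1 and IL2 had no measured feature, although the paper gives array fold changes for all of them. Of 57 genes of the study's own list on the array, 32 had a value. The reason was not tested.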

How the data were processed

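Total RNA of the cells was amplified, labelled and hybridised by the authors to whole human genome arrays of 60-mer probes. Scans were quantified in GenePix Pro, features were filtered on quality in Acuity, and limma was used for lowess within and quantile normalization between arrays. The deposited values were log2 ratios per feature as normalized by the authors, and features without a value were blank on all arrays. Direction was read as deposited.

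A linear model with 1 term per time point was fitted in limma 3.58.1 (R 4.3.3) to the 12 arrays, which left 9 residual degrees of freedom, and the 48 h term was tested by eBayes. The dye component came from a model with terms for time and orientation. P-values were adjusted by Benjamini-Hochberg over 17134 features, threshold 0.01. Of these features 13436 carry 1 symbol of the platform table, 32 several and 3666 none. Named were the features of 1 symbol with the smallest p on 1 side of 0 on the 4 arrays (12 above, 12 below, and 6 and 6 by the dye component), the 4 genes of smallest p in each list (of which those with a value to describe are given), genes past the threshold, PCR genes and references, and the genes of at least 8 features with the highest and lowest median. Other names are marked. Members and lists were chosen with earlier results of these data known. Fits were tested on simulated data, made from the residuals of these features with array order and signs drawn at random.

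Alternatives were ratios turned by the dye labels, a dye term, 48 h arrays alone with and without it, the replicate number as a block, centred, scaled and quantile-normalized arrays, robust variance, robust regression, array weights, gene means, an FDR of 0.05, 2-fold on top of it, and each 48 h array left out. Precision is limited by how many arrays there are. The authors' own fold changes and p-values were not used as results.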

Additional observations from a re-analysis of the deposited data

Results flagged for a closer look

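Of 128 genes and features whose 4 ratios at 48 h were examined, 6 had 1 replicate far from the other 3 by Dixon's criterion. Chance alone gives about 1 in 20. SUCLG1, a subunit of succinyl-CoA ligase, was at 3.60 on replicate 1 and between -0.51 and 0.13 on the others. DNAJC3, an inhibitor of the kinase PERK, was at 2.66 on replicate 1 and between -0.27 and -0.07 on the others. Both replicate 1 ratios stood at other features of that array as well, 3.60 at features of RTN3 and SHC1 and 2.66 at features of ITM2B and LCK. ETFA was at -0.81 on replicate 1 and between -0.57 and -0.55 on the others, and WIPI1 at 1.29 on replicate 2 and between 0.41 and 0.56 on the others. On replicate 3, POLA1 was at 1.33 and between 0.35 and 0.51 on the others, and the CASP8 feature at 1.99 and between 0.92 and 1.07 on the others.

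At 3220 features the arrays with LE in Cy5 lay on 1 side of 0 and those with LE in Cy3 on the other. The difference was tested as the dye component, with 0 features past the threshold by limma and 2380 at an unadjusted p under 0.05.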

How the results depend on the processing

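The 48 h comparison kept 0 calls under every alternative run except robust regression (9 features) and the left-out arrays (0 to 2, the 2 without replicate 3). The replicate number as a block gave 0 calls and 2202 features at an unadjusted p under 0.05, against 1591 without it. Same-numbered arrays at 24 h and 48 h have the same dye orientation, the correlation of their deviations was 0.09 to 0.21 where other arrays of that orientation gave 0.02 to 0.48, and 2 of 4 arrays matched their own number best. Between 48 h and 72 h it was 0.42 and 0.49 for the same number, and 0.18 and 0.26 for other arrays of that orientation. Since not every pair was above 0.1, the numbers were not taken to pair the arrays. The dye component had 46 calls with a single dye term and 0 to 96 with an array left out (96 without replicate 4, 0 without the others). Features on 1 side of 0 were 3974 to 5424 when 3 arrays had to agree in place of 4. The contrast of 48 h with the other times kept 0 calls in all its alternatives.

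With ratios turned by the dye labels, 12 of the 24 named features changed sign: CENPE to -0.28, BBS1 to -0.13, ALDH3B1 to 0.16, KIAA2013 to 0.15, LAMC1 to 0.13, TRIM16L to 0.14, PHLDA3 to 0.11, UBE2O to 0.15, TCEAL2 to 0.35, CASKIN1 to 0.90, MDM4 to 0.59 and GNPTAB to 0.67. These turned values are the dye components of the features, which were not chosen by them, so a turned value may take either sign. In the mean of its 10 features CENPE was at -0.10. BAX passed the threshold under robust regression alone (adjusted p = 0.00997). The restriction to own or shared ratios and to groups of at least 8 copies was chosen after seeing the data. Ratios hold no signal level, so how far each feature stood above background is unknown here.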
